A study of Homo sapiens with 2 samples.

Results

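MHC class I molecules carry peptides to the cell surface, and the genes that build and load them were examined in Ramos cells and in Ramos640 cells, their derivative that resists rituximab-mediated complement-dependent cytotoxicity (CDC). The group held 9 of the 37122 genes in the count table and was chosen by name: the heavy chains HLA-B, HLA-C, HLA-E and HLA-F, the light chain B2M, the peptide transporter subunits TAP1 and TAP2, the loading chaperone TAPBP and the transcription regulator NLRC5. All 9 were counted in both libraries and passed the minimum of 10 reads. Ramos is a human Burkitt's lymphoma (BL) line, a tumour of germinal centre B cells. Ramos640 was raised from Ramos in escalating rituximab, an antibody against CD20, together with normal human serum (NHS) as a source of complement, and was retreated with rituximab and 20% NHS every 21 days. The labels give the rituximab concentration as 640 mg/mL and the study's methods as 640 μg/mL, and neither says whether Ramos640 is 1 clone. Each line is represented by 1 library, made from the pooled RNA of 3 passages, and no difference below has a replicate check.

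A class I molecule is a heavy chain joined to β2-microglobulin, the product of B2M, and to a short peptide. Peptides cut by the proteasome in the cytosol are pumped into the endoplasmic reticulum by the TAP1 and TAP2 pair. There tapasin, the product of TAPBP, holds the empty heavy chain to the transporter, with the help of calreticulin and ERp57, until a fitting peptide binds. HLA-B and HLA-C are classical, highly polymorphic heavy chains that display peptides to CD8 T cells, while HLA-E shows leader peptides of other class I chains to natural killer cells and HLA-F is a little expressed non-classical chain. NLRC5 is a NOD-like receptor family protein that is brought to the promoters of class I genes by RFX, NFY and CREB/ATF factors. Germinal centre lymphomas, BL among them, often present little class I, which is known as a route to escape from T cells.

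The promoters of HLA-B, HLA-C, HLA-F and B2M are shown first, because the 3 heavy chains moved apart from B2M in the counts below. Each window is from RefSeq (GRCh38.p14), runs from 250 bases before to 50 bases after the annotated start and is written 5′ to 3′ on the strand of the gene. Capitals mark 4 sets of letters searched on both strands: CCAAT (the box bound by NFY), TGACG (a half-site of CREB/ATF factors), AAANNGAAA (an interferon-type repeat) and GGGATTCCC (a site of NF-κB type). HLA-B lies at chr6:31357130-31357429, HLA-C at chr6:31272043-31272342, HLA-F at chr6:29723184-29723483 and B2M at chr15:44711267-44711566.
HLA-B: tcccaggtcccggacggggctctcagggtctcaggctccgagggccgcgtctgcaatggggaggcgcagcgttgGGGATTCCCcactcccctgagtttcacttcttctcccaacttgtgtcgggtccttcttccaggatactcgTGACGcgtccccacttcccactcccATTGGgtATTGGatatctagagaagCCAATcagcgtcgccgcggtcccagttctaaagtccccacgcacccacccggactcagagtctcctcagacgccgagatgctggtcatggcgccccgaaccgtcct
HLA-C: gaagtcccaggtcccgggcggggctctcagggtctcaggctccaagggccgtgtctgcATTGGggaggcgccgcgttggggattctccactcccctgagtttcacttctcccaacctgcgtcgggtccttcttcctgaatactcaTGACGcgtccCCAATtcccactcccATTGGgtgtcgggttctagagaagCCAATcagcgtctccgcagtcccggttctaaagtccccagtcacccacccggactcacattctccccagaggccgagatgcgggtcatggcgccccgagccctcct
HLA-F: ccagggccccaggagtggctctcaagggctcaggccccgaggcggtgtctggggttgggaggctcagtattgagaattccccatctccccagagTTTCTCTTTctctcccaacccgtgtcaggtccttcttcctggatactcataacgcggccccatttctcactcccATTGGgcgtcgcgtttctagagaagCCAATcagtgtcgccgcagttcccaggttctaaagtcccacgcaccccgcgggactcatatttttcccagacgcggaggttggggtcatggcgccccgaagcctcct
B2M: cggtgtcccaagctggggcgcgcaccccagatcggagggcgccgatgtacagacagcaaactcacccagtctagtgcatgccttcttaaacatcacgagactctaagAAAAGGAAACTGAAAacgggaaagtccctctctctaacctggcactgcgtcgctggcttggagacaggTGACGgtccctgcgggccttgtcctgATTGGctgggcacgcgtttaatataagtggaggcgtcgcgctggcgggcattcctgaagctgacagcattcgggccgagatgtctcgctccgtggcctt

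The table of promoters held 7 of the 9 genes, with 2 start sites for TAP1. It lacked NLRC5 and HLA-E, so the promoter of HLA-E could not be set beside those of the other heavy chains. CCAAT was found in 5 of the 7 genes and in 34.6% of all 35116 promoters. In HLA-B and HLA-C a CCAAT began 56 bases before the start, and in HLA-F 57 bases before it. TGACG was found in HLA-B, HLA-C, B2M and TAP2, and in 24.6% of all promoters. AAANNGAAA was found in B2M, TAP1, TAP2 and TAPBP and in HLA-F, and in 10.5% of all promoters. GGGATTCCC was found in HLA-B, 176 bases before the start, and in 0.384% of all promoters. A match is a description of these letters and not a bound site. Only exact matches were counted, so the lack of a match does not show that a site is absent. The windows of HLA-B and HLA-C hold a near match to the interferon-type repeat that was not counted. The matches to this repeat therefore do not separate these heavy chains from B2M. The window of HLA-B was 88.5% identical to that of HLA-C and 79.2% identical to that of HLA-F over the aligned columns.

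The libraries held 38030090 reads for Ramos and 30871826 for Ramos640, and a count of 0 allows up to 3 reads (0.0789 and 0.0972 CPM, reads scaled to the library total). Normalized counts are reads divided by median-of-ratios size factors of 1.14 and 0.876. The B cell label held: CD79B, a subunit of the B-cell receptor, had 69495 reads in Ramos and 82890 in Ramos640, and all 7 B cell markers had at least 362 reads in each library. MS4A1, the gene of CD20, had 9654 and 1904 reads. Of 9 T cell markers 5 had 3 or fewer reads in both libraries, CD3D, CD2 and CD8A among them with none, and their summed level of 41.3 and 20.5 CPM came nearly all from TRAC (1555 and 583 reads). The summed level of 7 monocyte and dendritic cell markers was 0.526 and 0.583 CPM, and that of 5 natural killer cell markers 0.368 and 0.421. Less RNA per cell and fewer cells of a type cannot be told apart in such bulk libraries.

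HLA-B, HLA-C and HLA-F were more than 2-fold higher in the Ramos640 library, while the other 6 genes were 1.09-fold to 1.43-fold higher. The Ramos library held 23791 reads of HLA-B and the Ramos640 library 40013, or 20847 and 45663 normalized counts. The resulting log2 fold change (Ramos640 over Ramos, as throughout) was 1.13, with a 95% interval from 1.11 to 1.15. HLA-C had 7340 and 12401 reads, a log2 fold change of 1.14 (interval from 1.10 to 1.18). The rarest of the heavy chains, HLA-F, had 283 and 535 reads and a log2 fold change of 1.30 with a wider interval from 1.09 to 1.51. The intervals of these 3 genes overlap. HLA-E stood apart from them, with 5209 and 4406 reads and a log2 fold change of 0.14 (interval from 0.081 to 0.20). All intervals here are exact (Clopper-Pearson) and cover counting error only, not the variation between cultures.

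**Figure D1:**
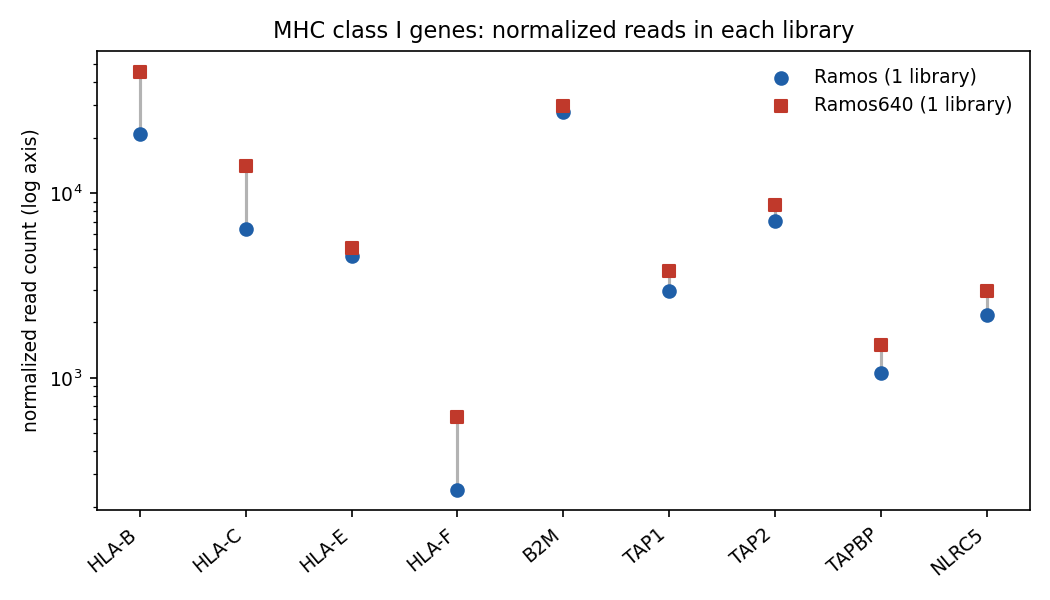
Normalized read counts (log axis) of the 9 genes in the Ramos library (circles) and the Ramos640 library (squares), 1 library each with no error bar. The distance between the symbols is wide for HLA-B, HLA-C and HLA-F and narrow for HLA-E and B2M.

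B2M, which every class I molecule needs, changed little. Its 31367 reads in Ramos and 26214 reads in Ramos640 made 27486 and 29915 normalized counts and a log2 fold change of 0.12 (interval from 0.098 to 0.15). The balance of heavy and light chain transcripts was also compared within each library, where no scaling enters. These ratios are not corrected for the trend over GC content given below, and B2M has much less GC than the heavy chains. For each B2M read there were 0.758 HLA-B reads in Ramos and 1.53 in Ramos640, so the ratio rose 2.01-fold (log2 change 1.01, exact conditional interval from 0.98 to 1.04). The ratio of HLA-C to B2M rose 2.02-fold (log2 change 1.02, interval from 0.97 to 1.06) and that of HLA-F to B2M 2.26-fold (1.18, interval from 0.97 to 1.39). For HLA-E to B2M it was 0.166 in Ramos and 0.168 in Ramos640, and the interval of its log2 change, from -0.046 to 0.080, included 0. HLA-B and HLA-C kept their proportion to each other, with 3.24 HLA-B reads for each HLA-C read in Ramos and 3.23 in Ramos640 (log2 change -0.0066, interval from -0.054 to 0.041).

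Among the reads of the 4 heavy chains, HLA-B made up 65.0% in Ramos (exact binomial interval from 64.5% to 65.5%) and 69.8% in Ramos640 (69.4% to 70.1%). HLA-C made up 20.0% and 21.6%. The share of HLA-E went from 14.2% (13.9% to 14.6%) to 7.68% (7.47% to 7.90%). HLA-F made up 0.773% (0.686% to 0.868%) and 0.933% (0.856% to 1.01%). Together the 4 heavy chains had 36623 and 57355 reads. The share of HLA-E was lower in Ramos640 although its normalized count was not.

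Levels of different genes were compared per length, as RPKM, reads scaled by the summed length of the exons and by the library total. In Ramos the order was B2M (264 RPKM), HLA-B (135), HLA-C (77.0), HLA-E (46.9), TAP2 (20.4), TAP1 (18.6), NLRC5 (5.32), TAPBP (4.77) and HLA-F (1.72). In Ramos640 the order was the same except at its top, where HLA-B (280 RPKM) and B2M (272) changed places. By this measure HLA-B went from rank 471 to rank 239 among all genes with a known length. B2M was at rank 245 in Ramos and 246 in Ramos640. The length of a gene is uncertain where the annotation holds unusual isoforms, and with the canonical transcript B2M stayed slightly ahead of HLA-B in Ramos640, at 900 and 844 RPKM. NLRC5 and TAPBP also changed places there, in Ramos (9.71 and 9.18 RPKM) as against Ramos640 (12.4 RPKM for both), and with 1 library per line these neighbours cannot be told apart.

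The transporter subunits and tapasin were higher by less than 1.5-fold. TAP1, with 3357 reads in Ramos and 3332 reads in Ramos640, had a log2 fold change of 0.37 (interval from 0.30 to 0.44). TAP2 had 8053 and 7589 reads and a log2 fold change of 0.30 (interval from 0.25 to 0.34). The ratio of TAP1 to TAP2 reads was 0.417 and 0.439, and the interval of its log2 change, from -0.0084 to 0.16, included 0. TAPBP had 1205 and 1324 reads and a log2 fold change of 0.52 (interval from 0.40 to 0.63), so its interval reached past the 1.5-fold limit of 0.58 on the log2 scale. The ratio of HLA-B to TAP1 reads rose 1.69-fold (log2 change 0.76, interval from 0.69 to 0.83). HLA-B transcripts thus rose more than those of this transporter subunit.

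NLRC5, the regulator that class I promoters share, had 2504 and 2590 reads and was 1.35-fold higher in Ramos640, at a log2 fold change of 0.43 (interval from 0.35 to 0.51). In GRCh37 the gene spans 57023397 to 57117443 of chromosome 16. Neighbours here are the nearest protein-coding genes with at least 100 reads, and genes below that minimum may lie between. Those of NLRC5 were HERPUD1 (0.86) and CPNE2 (1.06), which were both higher by over 1.5-fold. B2M spans 45003556 to 45011049 of chromosome 15, and its neighbours by the same rule were SPG11 (-0.39) and TRIM69 (0.14, with 59 and 50 reads). The other 7 genes lie in the major histocompatibility complex on chromosome 6. The outermost of them are HLA-F, from 29690552 to 29706305, and TAPBP, from 33267471 to 33282061.

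**Figure D2:**
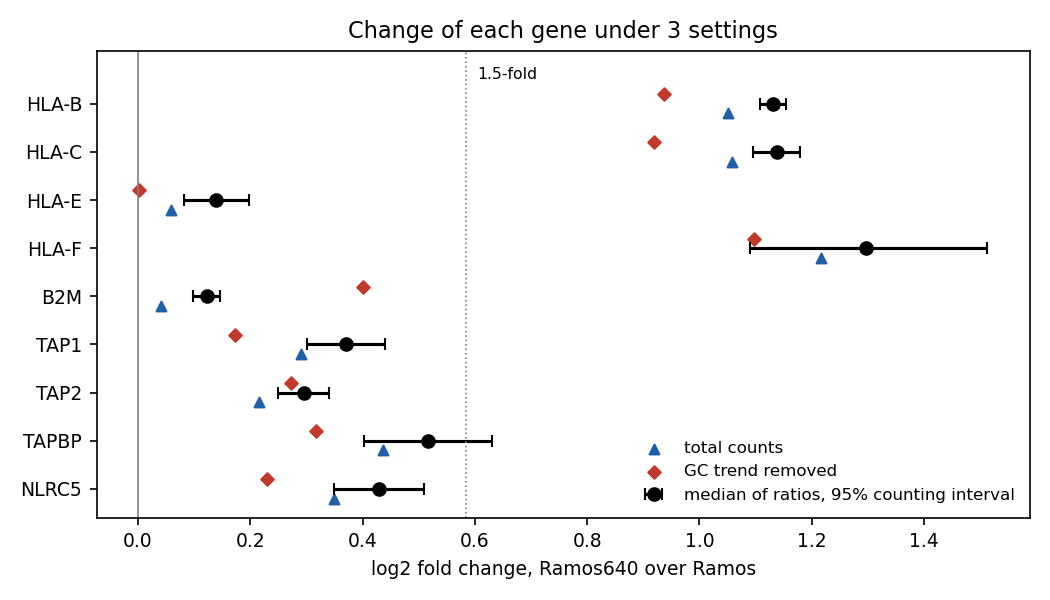
Log2 fold change of Ramos640 over Ramos for the 9 genes with median-of-ratios scaling (circles, bars are 95% counting intervals), with total counts (triangles) and after removal of the trend over GC content (diamonds). HLA-B, HLA-C and HLA-F lie above the dotted 1.5-fold line under all 3, and the other 6 genes lie below it.

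By the 1.5-fold limit of the study, 3 of the 9 genes were higher in Ramos640 and 0 were lower, against 14.6% higher and 17.3% lower among all 18778 genes that reached 10 reads. The 95% intervals of all 9 genes lay above 0, where 29.6% of all genes tested had an interval above 0 and 31.6% below 0. The genes here are deeply read, and among the 13677 genes with at least 100 reads (minimums of reads are over the 2 libraries together) these shares were 9.94% higher, 12.6% lower, 34.9% above 0 and 37.2% below 0. The median over the 9 genes was 0.43 on the log2 scale, beside -0.015 over all genes tested. At or above HLA-B stood 5.43% of all genes tested, at or above HLA-F 4.19%, at or above TAP1 23.0% and at or above B2M 39.5%. With 1 library per line there is no test of these counts.

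**Figure D3:**
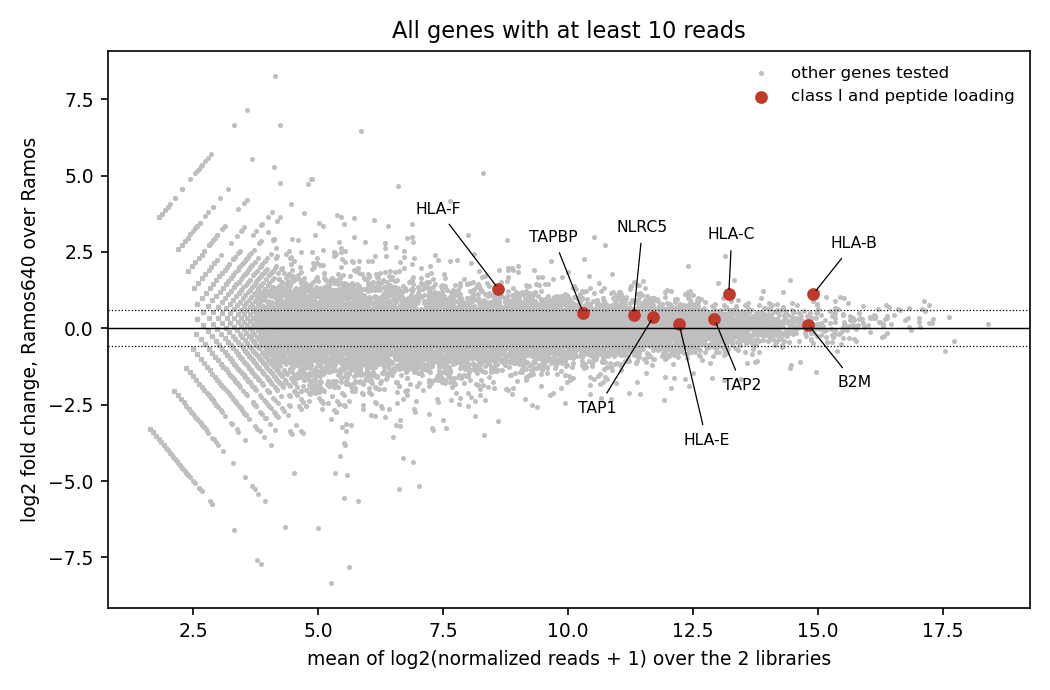
Log2 fold change of Ramos640 over Ramos against the mean log2 normalized count for all 18778 genes with at least 10 reads, with the 9 class I and peptide loading genes in red and dotted lines at 1.5-fold. HLA-B, HLA-C and HLA-F lie above the upper line, and the other 6 genes lie between the lines and above 0.

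GC content moved with the fold change. Over the 10276 protein-coding genes that reached 100 reads, GC-rich transcripts tended to have the larger log2 fold change (Spearman's rho = 0.431 across genes, which share the 2 libraries and are not independent). The canonical transcripts of HLA-B and HLA-C have 58.9% and 60.1% GC, that of B2M 39.1%, and the other 6 genes 48.9% to 58.0%. The 1820 genes with 55% to 61% GC had a median of 0.18, and 2.47% of them stood at or above HLA-B. After the trend was removed, the log2 fold change was 0.94 for HLA-B, 0.92 for HLA-C and 1.10 for HLA-F. That of B2M became 0.40, higher than without the correction, and that of HLA-E 0.0021. HLA-B, HLA-C and HLA-F thus stood less far above B2M than in the uncorrected ratios of reads, and HLA-E stood below B2M. NLRC5 then stood at 0.23, TAPBP at 0.32, TAP2 at 0.27 and TAP1 at 0.17. The 3 heavy chains were thus still over 1.5-fold higher after the removal, while the order of the other 6 genes was not kept.

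The heavy chain genes resemble each other. Of the 50-base words of the canonical HLA-B transcript, 2.56% also occur in another class I gene or pseudogene of the reference, and of HLA-C 6.76%, of HLA-E 4.76% and of HLA-F 1.68%. B2M and NLRC5 share no such word with any other annotated gene. A pseudogene annotated inside HLA-B holds 18.1% of its words, a readthrough gene that overlaps TAP2 holds 35.3% of the words of TAP2, and a long non-coding gene that overlaps TAPBP holds 39.6% of those of TAPBP. For HLA-F the largest share with 1 other gene is 18.8%. The primary assembly carries 1 allele of each gene, and whether the alternative MHC haplotypes of GRCh37 were used in mapping is not stated. How reads were placed that fit several class I genes is not stated either. The part of shared reads in these counts was therefore not tested. A further 15 rows of the table are named as class I paralogs or pseudogenes, and 10 of them had at least 10 reads. Of these, 4 were higher by over 1.5-fold and 0 lower, against 14.6% and 17.3% of all genes tested. The 4 include HLA-U (8 and 22 reads) and HLA-S (16 and 50 reads), which had few reads. Among the 10 rows, at a minimum of 100 reads, the pseudogene HLA-H rose most, with 1083 and 2317 reads. Its log2 fold change was 1.48 (interval from 1.37 to 1.58). The lowest was HLA-L (329 and 239 reads), with a log2 fold change of -0.080 and an interval from -0.33 to 0.16. Summed over all 19 class I rows there were 50220 and 73606 reads, a log2 fold change of 0.93 (interval from 0.92 to 0.95). The sum of the 4 heavy chains alone gave 1.03 (interval from 1.01 to 1.05).

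Antisense rows may share reads with members too, since the use of strand is not stated. HLA-F-AS1, which overlaps HLA-F and holds 15.0% of its words, had 146 and 90 reads (log2 fold change -0.31, interval from -0.71 to 0.072). LOC100507463, which RefSeq names PSMB8-AS1 and which shares 20.1% of the words of TAP1, had 2005 and 1255 reads (-0.29, interval from -0.40 to -0.19). The sense genes HLA-F and TAP1 were higher in Ramos640, while neither of these rows had an interval above 0.

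The genes around the class I genes were compared with them next. On chromosome 6 from GABBR1 to KIFC1 (29523406 to 33377673 of GRCh37), 106 protein-coding genes had at least 100 reads and a median log2 fold change of 0.20. Without the 7 genes examined here and all other genes with HLA names, the median of the remaining 84 was 0.14. Of these 84 genes, 8 were higher (9.52%) and 5 lower (5.95%) by over 1.5-fold. The matching shares were 7.09% and 12.7% over the 10276 genes used above for GC content. The rest of chromosome 6 had a median of -0.10 over 460 genes. The median GC content is 56.0% for the 84 genes and 44.5% for the rest of the chromosome, and after removal of the trend the medians were 0.0019 for the 84 genes and -0.014 for the rest of the chromosome. Among the genes with at least 100 reads, HLA-C and HLA-B stand side by side between TCF19 (6167 and 4070 reads, log2 fold change -0.22, interval from -0.28 to -0.16) and MICA (446 and 249 reads, -0.46, interval from -0.69 to -0.23). TAPBP stands between RGL2 (-0.023) and ZBTB22 (-0.11), whose intervals included 0. GABBR1, the gene before HLA-F at the same minimum, had 94 and 15 reads. It was lower by more than HLA-F was higher (-2.20, interval from -3.16 to -1.47).

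**Figure D4:**
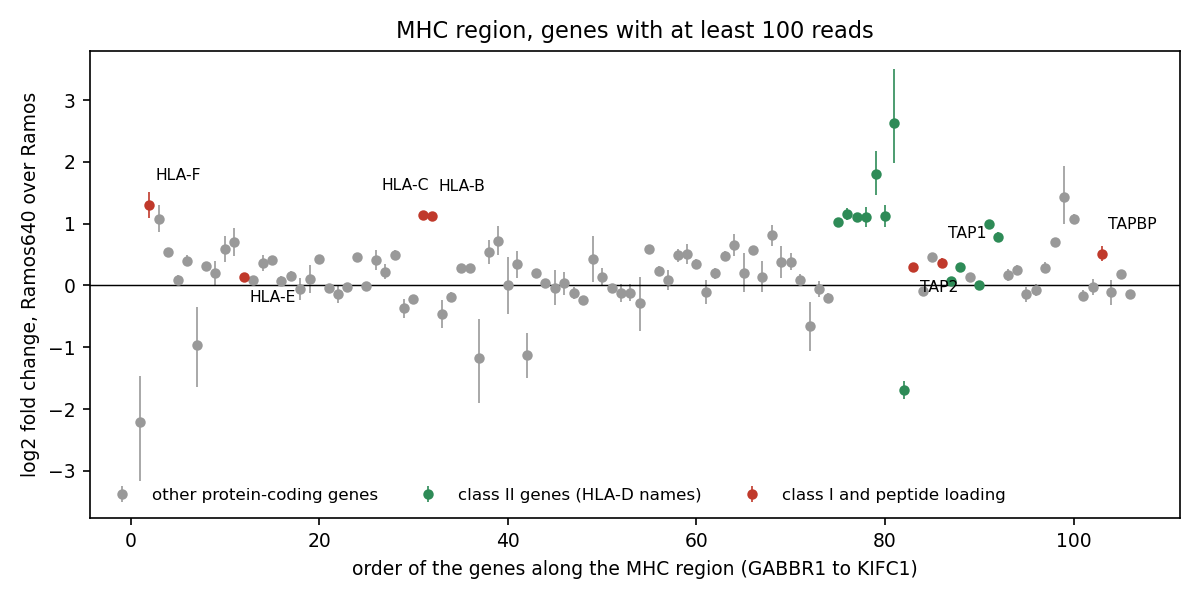
Log2 fold change of Ramos640 over Ramos for the 106 protein-coding genes of the MHC region with at least 100 reads, in their order along chromosome 6, with 95% counting intervals as bars. HLA-F, HLA-C and HLA-B (red) and many class II genes (green) stand at or above 1 on the log2 scale, and HLA-E, TAP1, TAP2 and TAPBP lie closer to 0.

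The peptide transporter genes share their stretch with 2 subunits of the immunoproteasome. PSMB9, which lies head to head with TAP1, had 4139 and 4374 reads and a log2 fold change of 0.46 (interval from 0.40 to 0.52). Its ratio to TAP1 was 1.23 in Ramos and 1.31 in Ramos640, and the interval of the log2 change, from -0.0027 to 0.18, included 0. PSMB8, which lies between TAP2 and PSMB9, had 13981 and 10050 reads and a log2 fold change of -0.095 (interval from -0.13 to -0.058). Its ratio to TAP2 fell by 0.39 on the log2 scale (interval from -0.45 to -0.33). The immunoproteasome list adds the third inducible subunit, the PA28 activators and an assembly factor. Of its 7 genes 0 passed 1.5-fold in either direction, against 14.6% higher and 17.3% lower among all genes tested. PSME2, an activator subunit, was highest at 0.53, and POMP, the assembly factor, lowest at -0.37. The 3 constitutive catalytic subunits PSMB5 (0.25), PSMB6 (0.56) and PSMB7 (0.21) were higher by less than 1.5-fold as well.

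Around the loading complex, 3 of 10 chaperones and editing enzymes were higher by over 1.5-fold and 1 was lower. Among all genes tested the shares were 14.6% higher and 17.3% lower. CALR, which encodes calreticulin, had 38066 and 58543 reads and a log2 fold change of 1.00 (interval from 0.98 to 1.02). The other 2 that were higher were P4HB (0.79) and HSPA5 (0.76), general folding factors of the endoplasmic reticulum. PDIA3, the gene of ERp57, was at 0.29, and CANX, the gene of calnexin, at 0.20. ERAP2, an aminopeptidase that trims peptides, was lower, with 513 and 153 reads (-1.36, interval from -1.63 to -1.10), while its relative ERAP1 (3881 and 2910 reads) had an interval that included 0. The list median was 0.33. Among 8 cytosolic peptidases 0 passed 1.5-fold, and the values ran from -0.40 for TPP2 to 0.34 for THOP1.

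The next list held 14 factors that bind class I promoters with NLRC5 or modify chromatin there. Of these, 0 were higher by over 1.5-fold (14.6% of all genes tested) and 2 were lower (17.3%). These were RFXAP (425 and 199 reads, log2 fold change -0.71) and NFYB (1020 and 485 reads, -0.69), subunits of RFX and NFY. With the GC trend removed they stood at -0.57 and -0.31, and neither passed 1.5-fold. Their partners RFX5 (0.15), RFXANK (0.47), NFYA (0.29) and NFYC (0.31) had intervals above 0. Of 15 interferon pathway genes, 0 were higher by over 1.5-fold and 2 were lower, JAK2 (393 and 100 reads, -1.59) and SOCS1 (195 and 99 reads, -0.59). SOCS1 lay near the limit and did not pass it with upper-quartile scaling or a pseudocount of 10. IRF1, which acts at class I promoters, was at 0.17 (1569 and 1356 reads, interval from 0.065 to 0.28). Of 5 NF-κB subunits, RELB (1.14) and NFKB2 (0.91) were higher by over 1.5-fold, RELA (0.56) and NFKB1 (0.023) were not, and REL was at -0.53.

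The class II genes, whose products present peptides to CD4 T cells and whose promoters use the same RFX and NFY factors with CIITA, were set beside the class I genes. Of 13 class II genes 9 were higher by over 1.5-fold and 1 was lower, with a median log2 fold change of 0.79. The shares over all genes tested were 14.6% higher and 17.3% lower. HLA-DRA, with 29316 and 45630 reads, was at 1.02 (interval from 1.00 to 1.04), where HLA-B was at 1.13. CIITA, which does for class II what NLRC5 does for class I, had 1134 and 1441 reads (0.73, interval from 0.61 to 0.84). HLA-DQB1 was highest at 1.81, and HLA-DOB, a modulator of class II loading that neighbours TAP2, was lowest at -1.69 (2169 and 516 reads). No test of the difference between the lists can be made with 1 library per line.

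Of 15 class I-like genes, 11 had at least 10 reads, with a median log2 fold change of -0.24. By over 1.5-fold 2 were higher and 3 lower, beside 14.6% and 17.3% of all genes tested. Both genes that were higher, HFE (3 and 9 reads) and AZGP1 (16 and 25 reads), had few reads. CD1D (541 and 208 reads) and CD1C (642 and 247 reads), which present lipids, were both at -0.99, and the other gene that was lower, CD1A, had 10 and 0 reads. Among those with at least 100 reads ULBP3, a ligand of the NKG2D receptor (76 and 68 reads), stood highest at 0.22 (interval from -0.27 to 0.71). MICA and MICB, ligands of the same receptor, were at -0.46 and -0.19. Among 7 receptors that bind class I, 2 had at least 10 reads. LILRB1, an inhibitory receptor for class I, had 782 reads in Ramos against a single read in Ramos640, which gave -8.32 on the log2 scale (interval from -14.54 to -6.75). LILRB2 had 52 and 9 reads (-2.05, interval from -3.36 to -1.12).

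**Figure D5:**
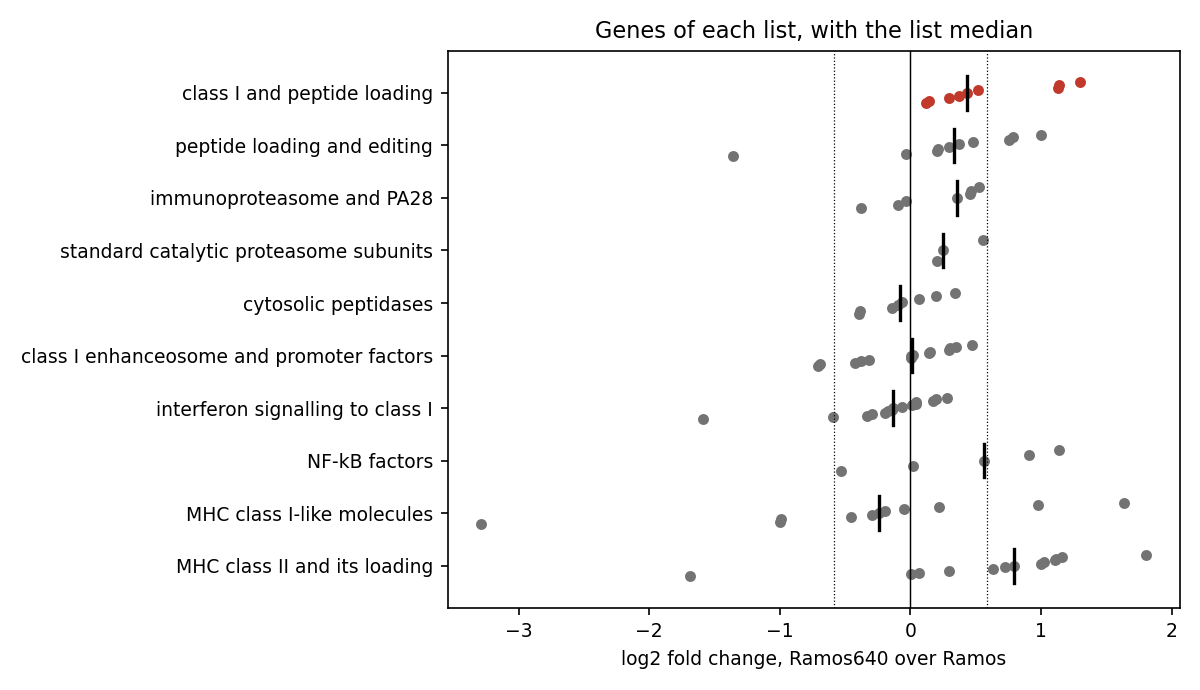
Log2 fold change of Ramos640 over Ramos for each gene with at least 10 reads in the class I group (red) and in 9 related lists (grey), with the list median as a black bar and dotted lines at 1.5-fold. The class I genes all lie above 0 with 3 beyond 1.5-fold, and the median is highest for the class II list at 0.79.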

How the data were processed

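RNA-seq libraries of Ramos and Ramos640 cells were made with the Ion Total RNA-seq kit from RNA pooled over 3 passages, 1 library per line. After trimming of adaptors, the authors mapped the reads to GRCh37 with MapSplice, and the deposited values are raw read counts per gene. Which program and annotation made the counts, and how multi-mapped reads and strand were handled, is not given in the sources used here.

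Scaling used median-of-ratios size factors, since the study names DEseq, and a pseudocount of 1 entered the log2 fold change. For each gene, the fraction of its reads that came from Ramos640 gave a 95% Clopper-Pearson interval, and intervals of ratios came from the exact conditional odds ratio (scipy 1.17.1). No replicate allows a dispersion, so no test was run and no p-value is given. A gene was called past 1.5-fold, the limit of the study. Alternatives were TMM factors (edgeR 4.0.16), total counts, the upper quartile, removal of a running median over 501 genes ordered by GC content, pseudocounts of 0.1 and 10, minimums of 1 and 100 reads, other gene lengths, and the sum of all class I rows. Lengths, GC content and coordinates came from GENCODE on GRCh37, and promoters from RefSeq on GRCh38.p14. Symbols matched 26511 rows of the count table, and older symbols or RefSeq gene numbers a further 5258. The members and lists were chosen with earlier results of these data known. The text names all 9 genes, genes that adjoin or overlap them, their neighbours with at least 100 reads, and LILRB1. From each list it names the largest rise and fall at the same minimum. One gene that this rule selects is not reported here. Other genes named with values were chosen after their values were seen. The calculation of fold changes and intervals was tested on simulated counts that held counting error only, the same error that the intervals assume. That test does not address variation between cultures, the GC trend or shared reads.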

Additional observations from a re-analysis of the deposited data

How the results depend on the processing

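The log2 fold changes of the 9 genes kept their sign under all 6 alternatives of scaling, GC content and pseudocount. Total counts, which moved the median of all genes tested by -0.080, gave 1.05 for HLA-B, 1.06 for HLA-C, 0.059 for HLA-E, 0.042 for B2M, 0.29 for TAP1, 0.22 for TAP2, 0.35 for NLRC5 and a median of 0.35 over the 9 genes. The upper quartile gave 1.18 for HLA-B, 1.19 for HLA-C, 0.17 for B2M and 0.35 for TAP2. Removing the trend over GC content gave 0.94 for HLA-B, 0.92 for HLA-C, 0.0021 for HLA-E, 0.40 for B2M, 0.17 for TAP1, 0.32 for TAPBP, 0.23 for NLRC5 and 0.32 for the median. Summing all class I rows gave 0.93 in place of 1.03 for the 4 heavy chains. The cause of these moves was not tested. Of the 9 genes, 3 were higher by over 1.5-fold and 0 lower under all 8 alternatives, and 9 intervals lay above 0 except with the GC trend removed, where that of HLA-E did not and 8 remained above.

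The counts past 1.5-fold in the related lists moved by over 1.5 times, or from or to 0, in 8 cases. The upper quartile gave 1 higher constitutive proteasome subunit in place of 0, and 1 lower interferon pathway gene in place of 2, as did a pseudocount of 10. Removal of the GC trend gave 0 lower promoter factors in place of 2, and total counts gave 1 lower NF-κB subunit in place of 0. A minimum of 100 reads gave 0 higher class I-like genes in place of 2 and 1 lower receptor in place of 2, and a minimum of 1 read gave 2 higher receptors in place of 0. Smaller moves were 3 higher NF-κB subunits in place of 2 with the upper quartile, 8 higher class II genes in place of 9 with total counts or the GC trend removed, 4 lower class I-like genes in place of 3 with a minimum of 1 read and 2 with a minimum of 100, and 3 lower receptors in place of 2 with a minimum of 1. Per kilobase in Ramos, B2M stood above HLA-B by 1.95-fold over the union of exons, 2.01-fold over the longest and 2.15-fold over the canonical transcript, the last of which was chosen after seeing the data. Against HLA-C these were 3.43-fold, 3.45-fold and 6.99-fold, against HLA-E 5.64-fold, 6.59-fold and 16.3-fold, and against HLA-F 153.2-fold, 73.5-fold and 174.0-fold. No paired analysis was possible because each line has 1 library. Intervals cover counting error only, and depth limits HLA-F most, with 283 reads in Ramos.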
